A study of Mus musculus with 36 samples.

Results

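The response of primary mouse skeletal myotubes to butyrate was read from 6 of the 36 RNA sequencing libraries of the series, 3 from cultures exposed to 5 mM butyrate for 6 h and 3 from cultures exposed to PBS as control. The libraries were chosen by their labels (myotubes, butyric acid treatment or control treatment). The cells were myoblasts from hindlimb muscle of wild-type C57Bl/6 mice, freed of most fibroblasts by preplating and differentiated to myotubes, and control and butyrate cultures were kept in the same differentiation medium for those 6 h. Myotubes exposed to 5 mM β-hydroxybutyrate (βOHB) for 6 h (3 libraries) served as a second reference, and the same butyrate comparison in each of the other cell types (adipocytes, macrophages and hepatocytes, 6 libraries each) showed which responses differed between cell types. A culture of this kind holds mononucleated cells beside the fused myotubes, so the libraries are a mixture, and whether replicates came from separate animals is not given in the sources used here.

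Butyrate is a short-chain fatty acid made by gut bacteria that inhibits class I and class II histone deacetylases, the enzymes that take acetyl groups off histone tails, and it can also be burned as a fuel. βOHB, the main ketone body of the fasted state, differs from butyrate by a hydroxyl group on its carbon chain. Myotubes are the multinucleated precursors of muscle fibers. They form when myoblasts stop dividing, switch on the transcription factors MyoD and myogenin, fuse through the membrane proteins myomaker and myomixer, and assemble sarcomeres, the membrane triads that couple excitation to contraction, and clusters of acetylcholine receptors.

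The 6 libraries were identified as muscle by their markers. Myog, which encodes myogenin, stood at 917, 981 and 1005 CPM in the control libraries and 329, 337 and 255 CPM in the butyrate libraries (CPM, the read count scaled for library size and composition), so that every butyrate library was lower than every control (log2 fold change -1.65, SE 0.16, adjusted p = 2.0e-10). Ckm, the muscle creatine kinase, measured 584, 682 and 718 CPM in the control libraries and 546, 546 and 391 CPM in the butyrate libraries, and the butyrate libraries again lay below the controls (log2 fold change -0.42, SE 0.14, adjusted p = 0.01). The call for Ckm was lost without butyrate replicate 3 (log2 fold change -0.27), under DESeq2 (-0.39), with scaling by library totals (-0.28) and in a fit of the 6 libraries alone (-0.39). Myh3, the embryonic myosin heavy chain, stood at 7854, 9887 and 9917 CPM in the control libraries and 6671, 6398 and 4545 CPM in the butyrate libraries. The butyrate values for Myh3 were all below the controls but the difference did not pass the reported test (log2 fold change -0.65, SE 0.32, adjusted p = 0.073). It passed without butyrate replicate 1 (log2 fold change -0.75), with the replicate block or limma-voom (-0.66 in both) and in fits of the 9 or 6 myotube libraries (-0.62 in both). Fold changes in this report are on the log2 scale and compare butyrate with control, their adjusted p-values come from edgeR's quasi-likelihood test, and CPM is not divided by transcript length and so is compared only within a gene.

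Each of the 6 libraries held between 19522866 and 22896053 estimated reads. Butyrate replicate 3 stood apart from its group in counts but not in the correlation of log2 CPM. Its counts differed from those of butyrate replicates 1 and 2 with a chi-square per gene of 38.9 and 43.8, against 9.01 between replicates 1 and 2 and 7.24 to 15.7 between control libraries. In log2 CPM, replicate 3 correlated with butyrate replicates 1 and 2 at 0.986 and 0.982, against 0.981 between replicates 1 and 2. It also had the lowest sum of the 8 muscle identity markers (16646 CPM, against 22514 and 22199 CPM in butyrate replicates 1 and 2 and 25808 to 31522 CPM in the controls) and the highest sum of the fibroblast markers (1790.5 CPM, against 1195.9 to 1492.7 CPM in the other 5). Values without this library are given wherever a call rested on it.

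Transcripts of other cell types were present and differed between the groups. Summed over 30 hepatocyte markers, the control libraries reached 0.0142%, 0.0133% and 0.00672% of the level in control hepatocytes, whereas the butyrate libraries reached 0.0813%, 1.41% and 0.335% of the level in butyrate-treated hepatocytes. Alb, which encodes serum albumin and is made by hepatocytes, had 0, 1 and 1 estimated reads in the controls and 578, 10684 and 2131 in the butyrate libraries. Thus, among the butyrate libraries, replicate 2 carried the most hepatocyte RNA and replicate 1 the least. The sum of the 20 macrophage markers moved in the opposite direction, from 2.48%, 2.04% and 0.896% of the macrophage level in the controls to 0.198%, 0.950% and 0.341% with butyrate, and it was also low with βOHB (0.491%, 0.366% and 0.856%). As a share the groups overlapped, since the markers were also lower in butyrate-treated macrophages. The summed CPM of the markers did not overlap, with 743, 611 and 268 CPM in the controls and 38.8, 186 and 66.9 CPM with butyrate, beside 146, 109 and 254 CPM with βOHB. In bulk RNA, fewer cells of a type and less RNA per cell cannot be told apart.

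**Figure D1:**
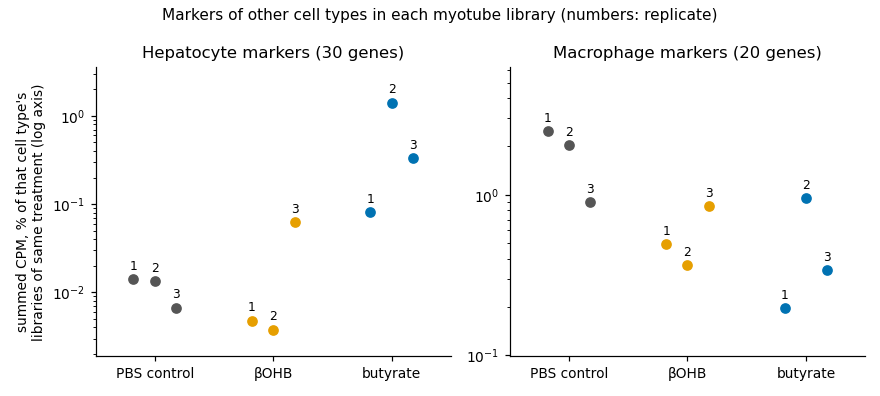
Summed CPM of the hepatocyte markers (left) and macrophage markers (right) in each myotube library, as a percentage of the level in libraries of that cell type with the same treatment (vertical axis, logarithmic). Points are single libraries with their replicate number, grouped by treatment along the horizontal axis. Hepatocyte markers are highest in butyrate replicate 2 (1.41%) and macrophage markers are highest in control replicates 1 and 2 (2.48% and 2.04%).

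Butyrate changed the level of most genes that could be tested. Of 15340 genes, 5083 rose (33.1% of those tested) and 5117 fell (33.4%), at an adjusted p below 0.05. These shares are the background for the counts of each gene list below. A change by more than 1 on the log2 scale was found for 1979 raised genes (12.9%) and 1184 lowered genes (7.72%). The split depended on scaling. When libraries were scaled by their totals alone, the median gene was shifted by 0.13 on the log2 scale and 6271 genes rose against 3873 that fell, so that raised genes made up 61.8% of the calls rather than 49.8%. Directions below are relative to the TMM scaling, under which the median gene did not move.

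The genes that rose strongly were mostly of low abundance, while those that fell strongly were better expressed. Strongly raised genes had a median of 0.906 CPM in the controls and took up 1.11% of control reads and 3.10% of butyrate reads. Strongly lowered genes had a median of 7.69 CPM and fell from 5.85% to 2.26% of reads. By comparison, the median over all tested genes was 16.0 CPM. The filter let genes that were nearly silent in the controls enter through other libraries, and such genes can rise but hardly fall strongly. Part of this contrast was therefore set in advance, and the medians were not recomputed without hepatocyte-enriched genes. The hepatocyte and macrophage RNA touched both tails. Among strongly raised genes, 392 were enriched in hepatocytes, and the hepatocyte share would by itself give more than 50% of the butyrate level of 262 strongly raised genes. Among strongly lowered genes, 164 were enriched in macrophages, and for 147 strongly lowered genes the macrophage share would give more than 50% of the control level. With the 539 hepatocyte-enriched genes left out, 1537 genes rose and 1221 fell strongly, and with the 294 macrophage-enriched genes left out the counts were 1929 and 1046 (both settings were recomputed from scaling onward, and the second was added after seeing the data).

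**Figure D2:**
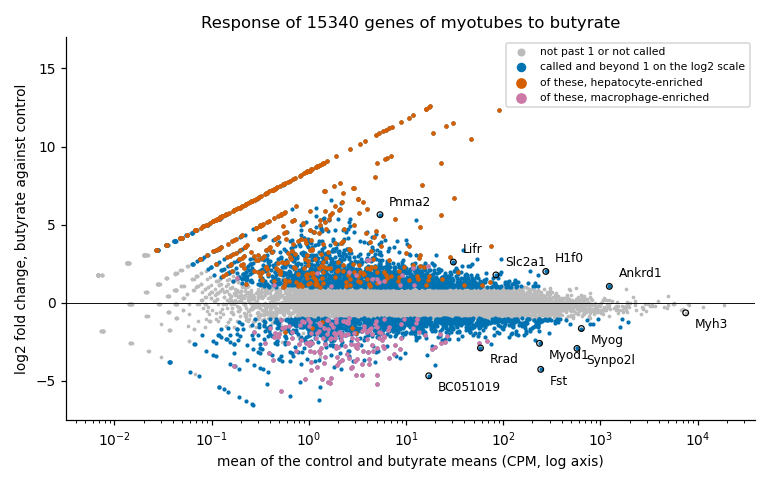
Log2 fold change of butyrate against control (vertical axis) over the mean of the group means in CPM (horizontal axis, logarithmic) for the tested genes of myotubes. Blue points passed an adjusted p of 0.05 and 1 on the log2 scale, orange and pink points are those that are enriched in hepatocytes or macrophages, and circled genes are described in the text. Fst (-4.27), Synpo2l (-2.93) and Rrad (-2.90) are far down at high expression, while the largest rises are hepatocyte-enriched genes.

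Genes for the linker histone H1 rose together. Linker histones bind the DNA between nucleosomes, and H1f0 encodes the replacement linker histone that accumulates in cells that have stopped dividing. The H1 genes of the histone cluster on chromosome 13 share promoter elements, an H1 box (AAACACA) and a CCAAT box, and their promoters are shown here because their transcripts moved in the same direction. The stretches run 130 to 31 bases upstream of the RefSeq start on the transcribed strand of GRCm38.p6, with exact matches to both boxes in capitals, including a CCAAT box on the opposite strand in H1f5.
H1f1 (chr13:23763538-23763637, +): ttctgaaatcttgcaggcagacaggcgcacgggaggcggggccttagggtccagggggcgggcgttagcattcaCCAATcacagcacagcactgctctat
H1f2 (chr13:23738677-23738776, +): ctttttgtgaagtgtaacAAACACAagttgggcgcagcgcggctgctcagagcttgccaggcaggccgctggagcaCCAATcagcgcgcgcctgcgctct
H1f3 (chr13:23554902-23555001, +): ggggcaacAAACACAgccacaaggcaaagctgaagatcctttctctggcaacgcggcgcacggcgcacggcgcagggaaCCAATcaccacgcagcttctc
H1f4 (chr13:23622589-23622688, -): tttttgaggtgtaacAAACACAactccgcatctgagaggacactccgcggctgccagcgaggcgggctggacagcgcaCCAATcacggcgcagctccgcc
H1f5 (chr13:21780656-21780755, -): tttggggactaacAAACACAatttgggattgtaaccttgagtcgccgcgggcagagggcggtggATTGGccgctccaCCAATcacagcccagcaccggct
The H1 box began 112, 122, 115 and 117 bases upstream of the start in H1f2, H1f3, H1f4 and H1f5. The CCAAT box on the transcribed strand that is shown began 56, 54, 51, 52 and 53 bases upstream in H1f1 to H1f5. On either strand of the 250 bases upstream of a start, the letters AAACACA occurred in 6.25% and CCAAT in 33.8% of 32851 RefSeq promoters. The H1f1 window held no exact AAACACA, and the H1f0 and H1f10 windows, which lie outside the cluster, held neither motif. A match of letters is a description and does not show a bound factor.

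H1f0 (chr15:79028450-79030504 (+)) rose to about 400% of control, with 104, 111 and 115 CPM in the control libraries and 465, 435 and 419 CPM in the butyrate libraries (log2 fold change 2, SE 0.06, adjusted p = 1.2e-20). Butyrate libraries lay far above the controls in each replicate. In the cluster, H1f2 rose from 96.4, 111 and 108 to 374, 328 and 360.1 CPM (log2 fold change 1.76, SE 0.11, adjusted p = 7.9e-15) and H1f4 from 9.76, 12.4 and 12.6 to 60, 43.5 and 60.4 CPM (log2 fold change 2.24, SE 0.16, adjusted p = 4.2e-13). H1f3 (1.95), H1f5 (2.88) and H1f10 (1.55) were also called, and H1f1, which lacks the H1 box in the window shown, rose by 1.36 (SE 0.34, adjusted p = 0.0011) from a low level of 0.366, 0.44 and 0.439 CPM. Therefore all 7 linker histone genes listed were raised. H2bc6, a cluster gene for core histone H2B, increased from 12, 12.7 and 13.6 to 53.6, 41.4 and 58.6 CPM (log2 fold change 2, SE 0.12, adjusted p = 1.1e-14). In the list of 21 linker and replacement histone genes, 11 rose and 1 fell. The exception was Macroh2a2, a variant H2A with a macro domain, which fell from 5.18, 5.28 and 5.45 to 3.09, 3.07 and 3.21 CPM (log2 fold change -0.76, SE 0.19, adjusted p = 0.00088). Histone cluster genes have near-identical copies between which the authors' counting had to divide reads by estimation, so values of single cluster genes are uncertain, and how RNA without a poly(A) tail was selected is not given in the sources used here.

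The enzymes that set histone acetylation were changed in both directions. Of 28 histone deacetylases and corepressor subunits, 12 rose and 12 fell, beside 33.1% and 33.4% of all tested genes. Hdac1, a class I deacetylase, rose from 45.1, 40.5 and 42.5 to 69, 66 and 78.6 CPM (log2 fold change 0.74, SE 0.05, adjusted p = 2.5e-13), and Hdac6, which deacetylates tubulin, rose from 13.3, 13.2 and 14.5 to 21.4, 24.1 and 22 CPM (log2 fold change 0.72, SE 0.08, adjusted p = 2.6e-09). Hdac2 stood at 111, 105 and 111 CPM in the controls and 116, 108 and 107 CPM with butyrate, without a detectable difference (log2 fold change 0.01, SE 0.07, adjusted p = 0.86). Hdac9, a class IIa enzyme that binds MEF2 factors, fell from 32.9, 36 and 38.1 to 20.3, 18.1 and 14.5 CPM (log2 fold change -1.01, SE 0.12, adjusted p = 2.5e-08). Acetyltransferases and acetyl-lysine readers mostly decreased, with 15 of 21 lowered, 2 raised and a median log2 fold change of -0.54 against 0 over all genes. Ep300, the acetyltransferase p300 and a partner of MyoD, dropped from 105, 105 and 115 to 51.2, 50.9 and 47.5 CPM (log2 fold change -1.12, SE 0.09, adjusted p = 4.2e-12). Brpf3 (-1.52), Brd9 (-1.17) and Kat2a (-0.95) fell as well, each with butyrate libraries below all controls.

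Most transcription factors of the myogenic program fell. Of 20 tested (21 listed), 12 were lowered, 8 of them by more than 1 on the log2 scale, and 4 were raised, with a median of -0.58. Myod1, the gene for the myoblast determination factor MyoD, dropped to 16.4% of control, from 381, 432 and 407 to 63.5, 69.4 and 67.6 CPM (log2 fold change -2.6, SE 0.11, adjusted p = 2.2e-18). The 3 butyrate values were close together and far below the controls. Pax7, the marker of satellite cells, fell from 17.5, 12.4 and 15.5 to 3.9, 3.67 and 2.23 CPM (log2 fold change -2.2, SE 0.2, adjusted p = 1.9e-07), and Myf5, which specifies myoblasts, from 31.9, 26.9 and 32.2 to 10.8, 8.72 and 7.54 CPM (log2 fold change -1.75, SE 0.17, adjusted p = 3.7e-08). Mef2c, a partner of the MyoD family that was picked after its values were seen, fell from 2004, 2260.2 and 2489 to 1260.4, 1120.3 and 926 CPM (log2 fold change -1.03, SE 0.11, adjusted p = 1.7e-09). Mef2d fell from 309, 327 and 353 to 150.5, 145 and 131 CPM (log2 fold change -1.21, SE 0.06, adjusted p = 4.0e-16), and Tead4, a Hippo pathway factor induced by MyoD, from 130.3, 141 and 139.9 to 60.9, 61.5 and 49.4 CPM (log2 fold change -1.26, SE 0.09, adjusted p = 1.2e-12).

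Of the 4 raised members, 3 are coactivators of serum response factor. Mrtfa and Mrtfb, which respond to actin dynamics, rose by 0.6 (SE 0.07, adjusted p = 1.5e-08) and 0.51 (SE 0.1, adjusted p = 6.4e-05). Myocd, their relative known from heart and smooth muscle and again picked after its values were seen, went from 0.183, 0.308 and 0.176 to 2.48, 2.62 and 2.37 CPM (log2 fold change 3.45, SE 0.33, adjusted p = 9.4e-10). Among 14 tested inhibitors of myogenic factors, 5 rose and 4 fell, beside 33.1% and 33.4% of all tested genes. Hey1, a Notch target, increased from 3.39, 1.8 and 2.15 to 10.6, 11.5 and 8.3 CPM (log2 fold change 2.05, SE 0.18, adjusted p = 5.4e-11), Id4 rose by 0.65 and Bhlhe41 fell by 0.72 on the log2 scale. These counts of 5 and 4 became 3 and 2 without control replicate 3, and the count of lowered genes also became 2 without butyrate replicate 1 or 2.

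Genes for cell fusion decreased, with 14 of 24 lowered and 2 raised. Mymx, the gene for myomixer that opens the fusion pore, fell from 24.3, 22.2 and 23 to 7.63, 6.34 and 6.96 CPM (log2 fold change -1.73, SE 0.15, adjusted p = 1.0e-08). Its partner myomaker (Mymk) stood at 929.8, 1048 and 1028 CPM in the control libraries and 842, 782 and 617 CPM in the butyrate libraries, a smaller decrease (log2 fold change -0.42, SE 0.14, adjusted p = 0.011) that was lost without butyrate replicate 3 (-0.30), under DESeq2 (-0.39) and with scaling by library totals (-0.29). Muscle cadherin (Cdh15) fell from 282, 280.1 and 286 to 145, 130.2 and 111 CPM (log2 fold change -1.13, SE 0.1, adjusted p = 9.4e-11). N-cadherin (Cdh2, -0.7) and the junctional adhesion molecule Jam3 (-0.71) were lowered by less than 1 on the log2 scale. Cav3, which encodes muscle caveolin, went from 328, 359.9 and 359 to 175, 167 and 133 CPM (log2 fold change -1.14, SE 0.11, adjusted p = 2.1e-10). In contrast, Il4ra, the interleukin 4 receptor subunit used in recruitment of myoblasts to myotubes, rose from 64, 56 and 55.3 to 79.3, 79.2 and 109.8 CPM (log2 fold change 0.61, SE 0.08, adjusted p = 1.7e-07). Without butyrate replicate 1, 4 rather than 2 fusion genes were raised.

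Most sarcomere genes fell. Of 58 tested (62 listed), 40 were lowered and 3 raised, and 43 had all butyrate libraries below all controls, beside 32.5% of all tested genes with that pattern (and 32.2% with the reverse). The median was -0.55, and 11 fell by more than 1 on the log2 scale. Tcap, which encodes the titin cap at the Z-disc, decreased from 246, 307 and 269 to 74.3, 67.9 and 71.5 CPM (log2 fold change -1.94, SE 0.12, adjusted p = 2.7e-14). The leiomodins that elongate thin filaments fell as well, Lmod3 from 634, 708 and 775 to 299, 295 and 225 CPM (log2 fold change -1.37, SE 0.12, adjusted p = 2.3e-11) and Lmod2 by 1.28 on the log2 scale. Among the myosins, Myh2 of fast oxidative fibers went from 146, 212 and 214 to 63.4, 57.3 and 22.2 CPM (log2 fold change -1.99, SE 0.2, adjusted p = 7.5e-10), with butyrate replicate 3 the lowest. Myh7b dropped from 60.3, 64.7 and 68.8 to 21.4, 18.7 and 20.7 CPM (log2 fold change -1.67, SE 0.12, adjusted p = 2.6e-12) and Myh1 by 1.22 on the log2 scale (SE 0.24, adjusted p = 6.6e-05; the DESeq2 fit gave -1.19 without a call). Mybph, a myosin binding protein picked after its values were seen, fell from 2144, 2458 and 2419.7 to 903, 822 and 702 CPM (log2 fold change -1.53, SE 0.24, adjusted p = 1.4e-06). Because myosin heavy chain genes are close copies, reads may be divided among them with error.

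Skeletal actin was lower as well. Acta1, the major thin filament protein, measured 6979, 8728 and 7976 CPM in the control libraries and 6212, 6110.5 and 4502 CPM in the butyrate libraries (log2 fold change -0.49, SE 0.16, adjusted p = 0.0094) and lost its call without butyrate replicate 3 or with scaling by library totals (-0.36 in both). Myoglobin (Mb) stood at 1607, 1916 and 2016 CPM in the control libraries and 1297, 1487 and 784 CPM in the butyrate libraries (log2 fold change -0.63, SE 0.23, adjusted p = 0.017) and was not called without control replicate 3 (-0.57) or butyrate replicate 3 (-0.41), under DESeq2 (-0.60), with scaling by library totals (-0.50) or in the fit of 6 libraries (-0.60). Of the 8 muscle identity markers, 4 were called lowered and 7 lay wholly below the controls. The count was 1 without butyrate replicate 3 or with scaling by library totals, and 7 in several other fits. Ankrd1 went the other way. Ankrd1, a stretch-responsive ankyrin repeat protein that binds titin, rose from 712, 878 and 835 to 1845, 1718 and 1431 CPM (log2 fold change 1.04, SE 0.1, adjusted p = 4.0e-10). The count of 3 raised sarcomere genes became 1 without control replicate 1 or butyrate replicate 1.

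**Figure D3:**
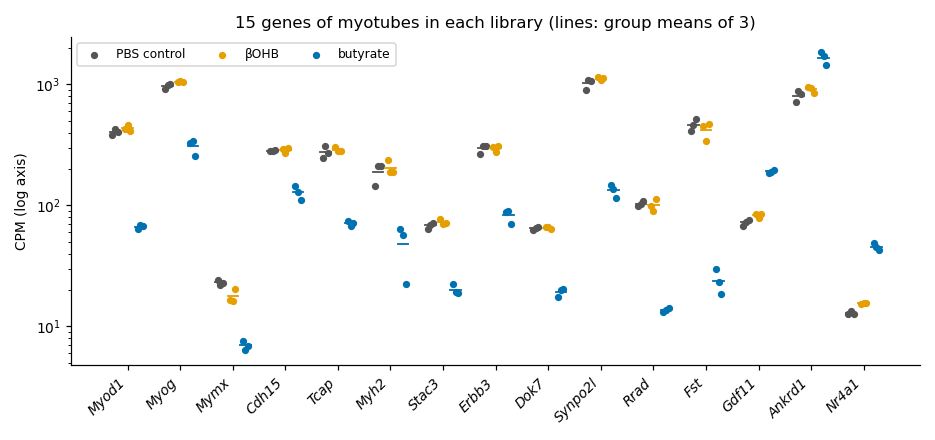
Level in CPM (vertical axis, logarithmic) of 15 genes in each of the 9 myotube libraries (points) with PBS, βOHB or butyrate, with lines at the group means of 3 libraries. From Myod1 to Fst the butyrate points lie below both other groups, and for Gdf11, Ankrd1 and Nr4a1 they lie above.

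Genes for excitation-contraction coupling decreased with the sarcomere, 21 of 34 lowered against 4 raised (median -0.42). Stac3, the adaptor that holds the voltage sensor to the release channel, fell from 64.3, 68.8 and 72.1 to 22.6, 19.3 and 18.7 CPM (log2 fold change -1.76, SE 0.1, adjusted p = 4.4e-15). Junctophilin 2 (Jph2), which ties the transverse tubule to the sarcoplasmic reticulum, fell from 332, 362 and 364 to 177, 162 and 143 CPM (log2 fold change -1.14, SE 0.09, adjusted p = 1.8e-12). Subunits of the dihydropyridine receptor fell to similar extents. Cacna1s, its pore, dropped from 616, 679 and 673 to 431, 404 and 300.3 CPM (log2 fold change -0.79, SE 0.16, adjusted p = 5.5e-05; -0.76 and not called by DESeq2), while Cacnb1 fell by 0.92 and Cacng1 by 1.13 on the log2 scale. Kcnj11, the pore of the ATP-sensitive potassium channel and picked after its values were seen, decreased from 17.5, 21.8 and 23.1 to 6.62, 6.58 and 5.53 CPM (log2 fold change -1.73, SE 0.17, adjusted p = 5.7e-09). Raised members included the inositol trisphosphate receptor Itpr1, which rose from 17.7, 13.2 and 14.6 to 27.1, 26.8 and 34.1 CPM (log2 fold change 0.95, SE 0.11, adjusted p = 8.4e-09).

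The RGK family of small GTPases, which bind the β subunit of calcium channels and dampen their current, split. Rrad (chr8:104628070-104631327 (-)) fell to 13.4% of control, from 98.9, 102 and 108 to 13.3, 13.8 and 14.2 CPM (log2 fold change -2.9, SE 0.09, adjusted p = 1.6e-20), and Rem1 fell from 6.5, 5.45 and 6.81 to 3.45, 3.35 and 3.62 CPM (log2 fold change -0.85, SE 0.19, adjusted p = 0.00027). Gem rose from 5.77, 5.98 and 5.45 to 15.4, 12.4 and 13.6 CPM (log2 fold change 1.27, SE 0.11, adjusted p = 3.9e-11), and Rem2, which was near the detection limit in the controls, from 0.229, 0.352 and 0.264 to 4.59, 3.67 and 4.06 CPM (log2 fold change 3.84, SE 0.28, adjusted p = 4.0e-12). In all 4 genes the groups did not overlap.

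At the neuromuscular junction, 16 of 21 tested genes fell and 4 rose (median -0.48). The receptor tyrosine kinases of neuregulin had the largest falls. Erbb2 dropped from 197, 222 and 217 to 63.2, 64.1 and 49.8 CPM (log2 fold change -1.84, SE 0.08, adjusted p = 5.3e-18) and Erbb3 from 267, 311 and 309.9 to 88.1, 89.3 and 70.5 CPM (log2 fold change -1.84, SE 0.09, adjusted p = 2.2e-16). Musk, the kinase activated by agrin, and Dok7, its cytoplasmic activator, fell in parallel, Musk from 126, 143 and 144 to 54.5, 51.4 and 40 CPM (log2 fold change -1.5, SE 0.1, adjusted p = 6.0e-13) and Dok7 from 62.5, 65.2 and 66.2 to 17.4, 19.9 and 20.3 CPM (log2 fold change -1.75, SE 0.11, adjusted p = 1.0e-14). The acetylcholine receptor was lowered less, with Chrna1 at 1958, 2134 and 2109 CPM in the control libraries and 1486, 1390.4 and 1169 CPM in the butyrate libraries (log2 fold change -0.62, SE 0.19, adjusted p = 0.005; -0.58 and not called by DESeq2). Agrn, the gene for agrin itself, rose from 33.2, 36.7 and 32.3 to 50.1, 43.7 and 52.4 CPM (log2 fold change 0.52, SE 0.1, adjusted p = 7.5e-05) and Etv5, a transcription factor of the synaptic program, from 104, 113 and 109.8 to 194, 185 and 156 CPM (log2 fold change 0.71, SE 0.07, adjusted p = 7.2e-10).

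The dystrophin complex links the sarcomere to laminin outside the fiber. Of 23 genes, 13 fell and 4 rose (median -0.30). The syntrophin Sntb1 fell from 257, 286 and 296 to 143, 144 and 106 CPM (log2 fold change -1.09, SE 0.11, adjusted p = 1.1e-09). Dystrophin itself (Dmd) measured 202, 239 and 264 CPM in the control libraries and 226, 235 and 159 CPM in the butyrate libraries, with overlapping groups and no call in the fit as reported (log2 fold change -0.18, SE 0.1, adjusted p = 0.1), although it was called lowered without control replicate 1 (-0.28), butyrate replicate 1 (-0.25) or butyrate replicate 2 (-0.29). Laminin α5 (Lama5) rose from 78.4, 82.1 and 83.2 to 172, 172 and 131 CPM (log2 fold change 0.96, SE 0.12, adjusted p = 2.1e-08).

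Follistatin showed the largest fall among the members of the plotted gene lists. Follistatin is a secreted protein that binds and neutralizes activins and myostatin, the TGF-β family ligands that restrain muscle growth. Fst (chr13:114452290-114458951 (-)) stood at 410.0, 464 and 515 CPM in the control libraries and 29.7, 23.5 and 18.6 CPM in the butyrate libraries, which is 5.17% of control (log2 fold change -4.27, SE 0.13, adjusted p = 1.2e-20). Of 30 activin, myostatin and TGF-β genes, 14 fell and 6 rose (median -0.18). Tgfb3, a TGF-β ligand, fell from 333, 355 and 359 to 163, 151 and 153 CPM (log2 fold change -1.17, SE 0.07, adjusted p = 1.4e-14), and Tgif1, a corepressor of SMAD proteins, from 53, 47.8 and 53.3 to 16.3, 19 and 25.8 CPM (log2 fold change -1.34, SE 0.12, adjusted p = 4.1e-11). Inha, the inhibin α subunit and picked after its values were seen, fell from 13.9, 16.6 and 12.4 to 4.02, 4.12 and 3.12 CPM (log2 fold change -1.93, SE 0.18, adjusted p = 8.3e-10). Gdf11, the ligand closest to myostatin in sequence, rose from 67.9, 73.1 and 76.4 to 185, 189 and 198 CPM (log2 fold change 1.4, SE 0.07, adjusted p = 2.4e-16), and the activin receptor Acvr1b from 16, 17.6 and 16.9 to 32.7, 28.7 and 30.5 CPM (log2 fold change 0.86, SE 0.09, adjusted p = 4.7e-10). With scaling by library totals alone the counts were 9 lowered and 10 raised.

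BMP signaling genes fell more often than they rose, 12 against 5 of 20 (median -0.47). The ligands split. Gdf6 fell from 41.2, 42.1 and 42.1 to 8.69, 8.76 and 7.81 CPM (log2 fold change -2.31, SE 0.13, adjusted p = 1.3e-15) and Bmp2 from 19.7, 17.7 and 17.3 to 5.28, 5.05 and 5.89 CPM (log2 fold change -1.75, SE 0.12, adjusted p = 1.7e-13), whereas Bmp4 rose from 0.779, 1.1 and 0.483 to 3.98, 3.59 and 5.36 CPM (log2 fold change 2.44, SE 0.27, adjusted p = 2.6e-09) and Bmp6 from 2.02, 1.8 and 2.11 to 8.2, 6.95 and 14.3 CPM (log2 fold change 2.31, SE 0.25, adjusted p = 1.8e-09). Bmp6 was highest in butyrate replicate 3. The BMP antagonist Chrd (chordin) fell by 1.17 on the log2 scale and the decoy receptor Bambi rose by 1.04.

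Of 27 insulin-like growth factor genes, 8 rose and 8 fell (median -0.13), no more in either direction than the 33.1% and 33.4% of all tested genes. Igf2, the abundant growth factor of differentiating myoblasts, stood at 1949, 2320.4 and 2379.7 CPM in the control libraries and 2559, 2564 and 1910.3 CPM in the butyrate libraries, with overlapping groups (log2 fold change 0.08, SE 0.18, adjusted p = 0.7). Irs2, the adaptor of the insulin receptor, rose from 9.44, 9.37 and 9.18 to 25.5, 24.3 and 27.9 CPM (log2 fold change 1.47, SE 0.13, adjusted p = 2.0e-11). The kinase genes fell, Akt1 from 291, 306 and 287 to 191, 185 and 216 CPM (log2 fold change -0.58, SE 0.05, adjusted p = 1.2e-10) and Akt2 by 0.52 on the log2 scale. Without a filter on low counts, 5 genes rose and 14 fell.

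Among 31 FOXO and atrophy genes, 16 rose and 10 fell (median 0.24), beside 33.1% and 33.4% of all tested genes. The ubiquitin ligases used as markers of atrophy were not among the raised genes. Fbxo32 (atrogin-1) fell from 69.3, 79.8 and 81.8 to 51.2, 51.7 and 44.7 CPM (log2 fold change -0.64, SE 0.08, adjusted p = 1.2e-08) and Trim63 (MuRF1) from 50.9, 51.9 and 53.3 to 36.8, 34.1 and 29.1 CPM (log2 fold change -0.64, SE 0.12, adjusted p = 4.2e-05). Trim54 (MuRF3), a relative of Trim63, fell from 83.6, 87.5 and 87.6 to 31.5, 30.8 and 24.9 CPM (log2 fold change -1.57, SE 0.12, adjusted p = 5.5e-12), and Gadd45a dropped by 0.77 on the log2 scale. Fbxo31, another F-box ubiquitin ligase, rose from 33, 35.2 and 36.3 to 89.9, 86.7 and 75.9 CPM (log2 fold change 1.27, SE 0.08, adjusted p = 5.3e-14). Metallothionein 2 (Mt2) rose by 1.3 with 81.2, 85.8 and 143 CPM in the butyrate libraries, and the hepatocyte share would give 11.5% of its mean butyrate level.

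Immediate early genes, which respond to growth factors and activity without new protein, mostly rose, with 21 of 31 raised and 6 lowered (median 0.75), and 10 rose by more than 1 on the log2 scale. Nr4a1, an orphan nuclear receptor induced by activity, rose from 12.6, 13.3 and 12.7 to 48.8, 45 and 43.1 CPM (log2 fold change 1.82, SE 0.11, adjusted p = 1.3e-14). Fos rose from 6.14, 7.04 and 7.03 to 24, 23.8 and 15.1 CPM (log2 fold change 1.64, SE 0.13, adjusted p = 6.9e-12), with butyrate replicate 3 the lowest of its group. Dusp6, a phosphatase of ERK kinases, rose from 92.2, 92.1 and 89.9 to 193, 195 and 179 CPM (log2 fold change 1.05, SE 0.07, adjusted p = 6.8e-14), and Ccn2, a matricellular growth factor, from 410.0, 316 and 337 to 554, 512 and 827 CPM (log2 fold change 0.83, SE 0.13, adjusted p = 1.6e-06), highest in butyrate replicate 3. Exceptions were Myc, which fell from 33.5, 34.7 and 35.5 to 13.4, 12.6 and 19.5 CPM (log2 fold change -1.19, SE 0.1, adjusted p = 2.2e-11), and Fosl1, a Fos relative that fell by 1.55 on the log2 scale. By comparison the median log2 fold change of this list was 0.25 (adipocytes), 0.20 (macrophages) and 0.37 (hepatocytes).

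Secreted factors of muscle went both ways, 16 raised and 14 lowered among 39 (median 0.03), near the 33.1% and 33.4% of all tested genes. Tgfa, a ligand of the EGF receptor, increased from 2.47, 2.9 and 3.78 to 25.4, 25 and 24.4 CPM (log2 fold change 3.03, SE 0.11, adjusted p = 9.9e-20) and Areg (amphiregulin), another, from 5.13, 3.91 and 6.02 to 26.7, 25.4 and 24.5 CPM (log2 fold change 2.35, SE 0.17, adjusted p = 3.9e-13). The fibroblast growth factor genes Fgf2 and Fgf7 were lowered, Fgf2 from 60.8, 57.4 and 68.3 to 18.6, 19.2 and 32.5 CPM (log2 fold change -1.41, SE 0.13, adjusted p = 4.6e-11) and Fgf7 by 1.79 on the log2 scale. Dkk3, a secreted member of the dickkopf family of Wnt modulators, rose from 3.48, 3.91 and 2.99 to 8.89, 9.73 and 15 CPM (log2 fold change 1.69, SE 0.19, adjusted p = 5.7e-09).

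The cell cycle inhibitor p21 fell in myotubes. Cdkn1a, which encodes p21 and is switched on when myoblasts leave the cycle, stood at 2107, 2199.7 and 2355 CPM in the control libraries and 1609, 1583 and 1306 CPM in the butyrate libraries (log2 fold change -0.57, SE 0.09, adjusted p = 2.2e-06). In contrast, Cdkn2d (p19) rose from 15.5, 16.7 and 12.8 to 44.8, 48.1 and 41.5 CPM (log2 fold change 1.58, SE 0.1, adjusted p = 9.1e-15) and Cdkn1b (p27) from 36, 36 and 41 to 58.6, 53.8 and 49 CPM (log2 fold change 0.52, SE 0.08, adjusted p = 2.1e-06). Of 10 such inhibitors, 3 rose and 1 fell, and the count of rises was 6 with scaling by library totals and 5 in the fit of 9 myotube libraries. Promoter stretches of Cdkn1a, Cav3 and Synpo2l are shown because these genes fell and their windows hold the letters of known motifs. These are a GC box (GGGCGG, the motif of Sp1), an E box (CAGCTG, a motif of MyoD and myogenin) and the motif of MEF2. Capitals mark exact matches on the transcribed strand, and bases are from RefSeq on GRCm38.p6.
Cdkn1a, its second annotated start (chr17:29093649-29093738, +): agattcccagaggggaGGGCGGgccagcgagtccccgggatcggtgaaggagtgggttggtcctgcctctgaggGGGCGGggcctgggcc
Cav3 (chr6:112459375-112459444, +): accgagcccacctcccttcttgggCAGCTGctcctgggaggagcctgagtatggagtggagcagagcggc
Synpo2l (chr14:20668425-20668494, -): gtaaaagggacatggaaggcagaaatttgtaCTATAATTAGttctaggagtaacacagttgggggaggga
The GC boxes began 104 and 46 bases upstream of the start of Cdkn1a, the E box 106 bases upstream of Cav3 and the MEF2 site 109 bases upstream of Synpo2l. On either strand of 250 upstream bases, a GC box occurred in 32.7% of the 32851 promoters, this E box in 13% and a MEF2 site in 0.508%. The window of the other annotated start of Cdkn1a held no GC box, and that of the other start of Synpo2l held no MEF2 motif.

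Of 30 p53 targets, 9 rose and 8 fell (median 0.03), again no more than the 33.1% and 33.4% of all tested genes. Eda2r, a death-domain receptor, fell to 19.4% of control, from 347, 362 and 363 to 69.9, 70.2 and 68 CPM (log2 fold change -2.36, SE 0.08, adjusted p = 1.3e-20). Phlda3, an inhibitor of AKT, fell from 254, 270.4 and 245 to 79.5, 77.3 and 91.5 CPM (log2 fold change -1.63, SE 0.07, adjusted p = 3.4e-18), and Bbc3 (PUMA) fell by 1.17 on the log2 scale. Tigar, a regulator of glycolysis, rose from 13.8, 12.9 and 13 to 30.2, 30.2 and 27.1 CPM (log2 fold change 1.14, SE 0.07, adjusted p = 3.6e-14). Proliferation markers fell more often than they rose, 18 of 30 lowered and 4 raised (median -0.79). Their summed level was 359, 290 and 244 CPM in the controls and 237, 249 and 249 CPM with butyrate, so the groups overlapped. Mki67 went from 33.7, 26.3 and 16.6 to 3.98, 7.15 and 7.45 CPM (log2 fold change -2.04, SE 0.33, adjusted p = 2.7e-06) and Top2a from 26, 17.8 and 10.9 to 6.37, 7.67 and 7.9 CPM (log2 fold change -1.31, SE 0.27, adjusted p = 9.0e-05). In the controls both were highest in replicate 1 and lowest in replicate 3, as was the macrophage share, which would give 59.7% and 40.5% of their mean control levels. What part the macrophage share had in the falls of Mki67 and Top2a was not tested. With macrophage-enriched genes left out, which removed 10 of the 30 from the test, 10 of the remaining 20 fell. The median of this list was -0.63 with βOHB, which was tested against the same controls. Ccne1 (cyclin E1) rose from 11.9, 9.76 and 10.7 to 30.5, 32.8 and 29.2 CPM (log2 fold change 1.52, SE 0.11, adjusted p = 4.7e-13).

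Glucose transporters split. Slc2a1 (GLUT1), the basal glucose transporter, rose from 39.1, 39 and 36.2 to 119, 115 and 158 CPM (log2 fold change 1.78, SE 0.19, adjusted p = 2.2e-09), and Slc2a3 (GLUT3) from 2.61, 2.33 and 2.5 to 11, 10.7 and 10.3 CPM (log2 fold change 2.11, SE 0.13, adjusted p = 6.3e-14). Slc2a4 (GLUT4), the insulin-responsive transporter of muscle, fell from 32.3, 42.1 and 39.1 to 26.2, 27.9 and 17.8 CPM (log2 fold change -0.66, SE 0.12, adjusted p = 3.0e-05). Slc16a1 (MCT1), which carries lactate, ketone bodies and butyrate, rose from 50.3, 54.9 and 51.9 to 122, 123 and 94 CPM (log2 fold change 1.11, SE 0.12, adjusted p = 3.9e-09). Brain glycogen phosphorylase (Pygb) rose from 25.5, 20.6 and 19.6 to 64.9, 62.7 and 70.3 CPM (log2 fold change 1.59, SE 0.1, adjusted p = 5.6e-14), and muscle enolase (Eno3) fell from 929, 1002 and 924 to 733, 708 and 567 CPM (log2 fold change -0.51, SE 0.1, adjusted p = 3.3e-05). Over 34 glucose and glycogen genes, 10 rose and 9 fell, below the 33.1% and 33.4% of all tested genes, and the count of falls was 4 without butyrate replicate 3 or with scaling by library totals, 3 in the fit of 6 libraries and 17 against the βOHB libraries. In energy transfer, brain creatine kinase (Ckb) rose from 163, 174 and 159 to 305, 282 and 293 CPM (log2 fold change 0.83, SE 0.08, adjusted p = 5.6e-10) while 6 of the other 10 genes fell, Ckm among them. The count of falls was 3 under DESeq2 or with scaling by library totals and 2 in the fit of 6 libraries.

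Fatty acid genes rose more often than they fell, 15 against 6 of 33 (median 0.17). Acsl1, which activates long-chain fatty acids, rose from 69.9, 75.4 and 76.8 to 129, 131 and 109 CPM (log2 fold change 0.73, SE 0.07, adjusted p = 7.9e-11). Hadh, an enzyme of β-oxidation, rose by 0.63 (SE 0.07, adjusted p = 1.6e-09), and Dgat2, of triglyceride synthesis, from 14.3, 14.9 and 14.2 to 32.6, 32.7 and 28.5 CPM (log2 fold change 1.11, SE 0.09, adjusted p = 4.0e-12; the hepatocyte share gives 9.88% of its butyrate level). The fatty acid translocase Cd36 fell from 95.6, 114 and 111 to 65.9, 59.7 and 58.3 CPM (log2 fold change -0.8, SE 0.09, adjusted p = 2.1e-09). Ucp3, the muscle uncoupling protein and picked after its values were seen, fell from 4.44, 4.31 and 5.01 to 0.65, 0.646 and 0.312 CPM (log2 fold change -3.07, SE 0.29, adjusted p = 2.0e-09). The mitochondrial regulators split within a family. Ppargc1a (PGC-1α), the coactivator of mitochondrial biogenesis, rose from 19.3, 21 and 24.3 to 69.7, 64.2 and 48.5 CPM (log2 fold change 1.5, SE 0.12, adjusted p = 8.0e-12), and its relative Ppargc1b fell from 19.1, 20.9 and 22.9 to 11.3, 10.8 and 9.15 CPM (log2 fold change -1.01, SE 0.12, adjusted p = 8.2e-09). The nuclear receptors Esrrg (1.8) and Ppara (1.09) rose and the deacetylase gene Sirt1 fell (-0.9). Of 25 mitochondrial regulators 6 rose and 10 fell, beside 33.1% and 33.4% of all tested genes. Of 22 citric acid cycle genes 3 rose and 7 fell, beside the same shares. The citric acid cycle genes moved little, with none called beyond 1 on the log2 scale. Their direction depended on scaling, with 8 raised and 2 lowered under scaling by library totals. The count of rises was 7 without butyrate replicate 3, and the count of falls was 4 without control replicate 2, 11 without butyrate replicate 2, 3 and 1 in the fits of 9 and 6 libraries and 15 against the βOHB libraries.

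Genes known from neurons rose. Of 51 listed, 35 could be tested, of which 26 rose, 20 of them by more than 1 on the log2 scale, and 6 fell (median 1.2, against adipocytes at 0.74, macrophages at 1.37 and hepatocytes at 1.61). The test requires a minimum level in some libraries, so members seen only after butyrate could enter and members silent everywhere could not. Mapt (tau) rose from 5.59, 8.23 and 6.2 to 29.6, 27.6 and 26.8 CPM (log2 fold change 2.07, SE 0.16, adjusted p = 3.4e-12). The synapsin genes Syn1 and Syn2 rose too, Syn1 from 7.51, 8.93 and 8.96 to 23.1, 22.5 and 19.4 CPM (log2 fold change 1.36, SE 0.14, adjusted p = 6.3e-10) and Syn2 from 5.82, 7.48 and 7.69 to 27.7, 26 and 18.8 CPM (log2 fold change 1.79, SE 0.17, adjusted p = 1.9e-10). Map2, a dendritic microtubule protein picked after its values were seen, rose from 7.56, 4.09 and 3.3 to 17.6, 17.4 and 17.6 CPM (log2 fold change 1.82, SE 0.2, adjusted p = 2.5e-09). Rab3a, of synaptic vesicles, rose from 27.1, 31.8 and 30.7 to 63.2, 61 and 57 CPM (log2 fold change 1.02, SE 0.07, adjusted p = 4.7e-13). Cplx2 (complexin 2) fell from 11.8, 11.3 and 12.3 to 7.02, 6.87 and 7.86 CPM (log2 fold change -0.7, SE 0.16, adjusted p = 0.00026). The count of 6 falls became 1 without control replicate 3 and 2 without butyrate replicate 3.

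Markers of other cell types were tested as well. All 30 hepatocyte markers were called raised and 26 lay above all controls, with Alb at 0, 0.044 and 0.0439 CPM in the control libraries and 23.5, 431 and 95.1 CPM in the butyrate libraries. All 19 macrophage markers tested were lowered and 17 lay below all controls. Csf1r, the receptor that defines macrophages, measured 45.6, 37.9 and 14.5 CPM in the control libraries and 1.18, 7.11 and 3.97 CPM in the butyrate libraries and 8.67, 5.68 and 13.4 CPM with βOHB, and all 19 markers also passed the test for βOHB against the same controls. The part of the macrophage share in these falls was not tested. Fibroblast markers gave 2 rises and 1 fall of 12, or 1 to 5 rises and 1 to 4 falls depending on the library left out. Of 39 extracellular matrix genes 11 rose and 5 fell, or 6 and 11 without butyrate replicate 3, the library with the highest fibroblast sum. The count of falls was 3 without butyrate replicate 2 and 2 with scaling by library totals, and the fit of 6 libraries gave 7 rises and 3 falls. Of 10 endothelial markers 5 rose and 1 fell (0 fell without control replicate 1 or in the fit of 6 libraries), at a summed level of 15.0 to 22.6 CPM with butyrate and 6.37 to 16.3 CPM in the controls, while the defining markers Pecam1 (0.406, 0.444 and 0.402 CPM) and Cdh5 (2.15, 1.7 and 4.91 CPM) were low with butyrate and did not pass. Of 10 adipocyte markers 3 rose and 1 fell. Their summed level of 281 to 417 CPM in the controls and 70.8 to 160 CPM with butyrate was nearly all Car3, a carbonic anhydrase that muscle also expresses, which fell from 279, 414 and 318 to 138, 157 and 66 CPM. The defining marker Adipoq was at 0 in all controls.

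**Figure D4:**
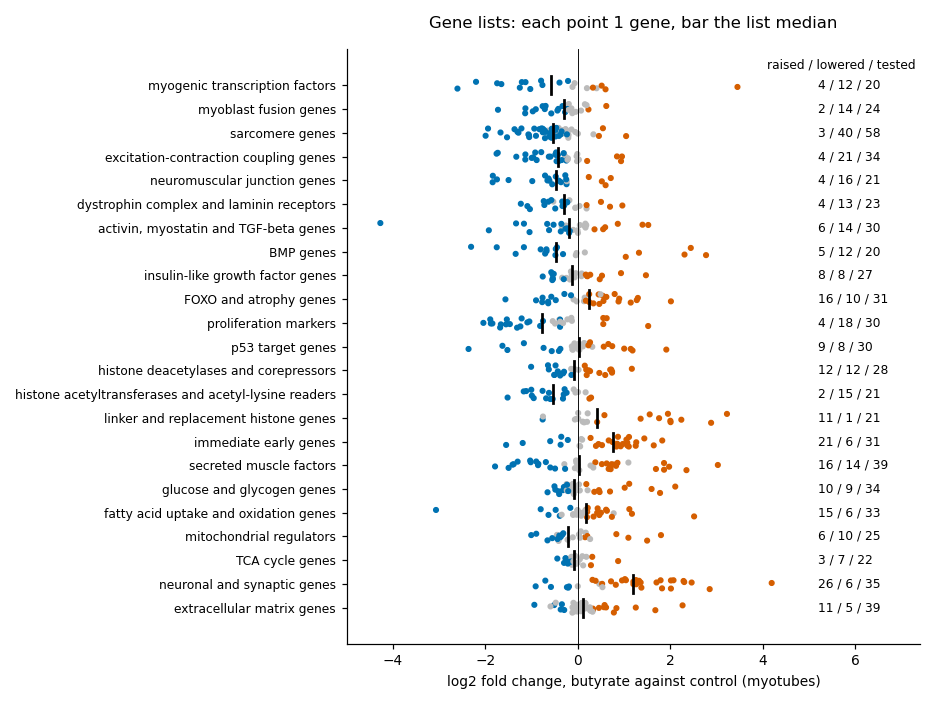
Log2 fold change of butyrate against control (horizontal axis) for the members of each gene list (rows), orange where raised, blue where lowered and gray where not called. Black bars are list medians and the numbers at the right count raised, lowered and tested members. Sarcomere genes (3 raised, 40 lowered of 58) lie mostly left of 0, whereas immediate early genes (21 raised, 6 lowered of 31) and neuronal genes (26 raised, 6 lowered of 35) lie mostly right.

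Other genes were named for the size of their rise among protein-coding genes that reached 10 CPM with butyrate, were not hepatocyte-enriched and had groups that did not overlap, so that their separation was part of the choice. Pnma2, a paraneoplastic antigen gene derived from a retrotransposon, was nearly silent in the controls and rose from 0.137, 0.264 and 0.22 to 10.9, 9.57 and 11.3 CPM (log2 fold change 5.64, SE 0.23, adjusted p = 7.5e-18). Efna3, an ephrin ligand, rose from 1.01, 1.41 and 1.01 to 19.2, 17.3 and 20 CPM (log2 fold change 4.04, SE 0.15, adjusted p = 3.2e-19), and Nova2, a neuronal splicing factor, from 1.1, 0.88 and 0.879 to 15.3, 13 and 16.9 CPM (log2 fold change 3.98, SE 0.23, adjusted p = 3.1e-15). Vdr, the vitamin D receptor, rose from 0.916, 0.66 and 0.571 to 11.3, 10.9 and 12 CPM (log2 fold change 3.99, SE 0.2, adjusted p = 1.7e-16). Oxtr, the oxytocin receptor, rose from 0.779, 0.572 and 0.747 to 12.1, 10.1 and 8.61 CPM (log2 fold change 3.87, SE 0.28, adjusted p = 4.0e-13), and Nppb, which encodes the natriuretic peptide BNP, from 1.28, 1.19 and 0.791 to 12.1, 8.44 and 16.2 CPM (log2 fold change 3.49, SE 0.23, adjusted p = 5.9e-14). The kinesin Kif21b rose from 6.28, 7.79 and 6.63 to 73, 73.2 and 66.1 CPM (log2 fold change 3.36, SE 0.13, adjusted p = 9.8e-19).

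Bdh1 is of interest for the ketone body pathway, since it encodes the mitochondrial dehydrogenase that interconverts βOHB and acetoacetate. It rose from 1.79, 1.63 and 1.45 to 15.8, 15.2 and 15.4 CPM with butyrate (log2 fold change 3.25, SE 0.13, adjusted p = 1.2e-18) and stood at 2.38, 2.04 and 2.3 CPM with βOHB (log2 fold change 0.47 against control, adjusted p = 0.16). The hepatocyte share gives 0.73% of its butyrate level.

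The next genes other than Synpo2 were chosen among protein-coding genes with at least 10 CPM in the controls and no overlap of the groups. Their large falls included genes of muscle and of immune cells. Synpo2l (chr14:20658946-20668354 (-)), which encodes a Z-disc protein of striated muscle, decreased from 905, 1077 and 1069 to 148, 136 and 116 CPM (log2 fold change -2.93, SE 0.16, adjusted p = 1.1e-15), and its paralog Synpo2 from 416, 485 and 509 to 127, 128 and 109 CPM (log2 fold change -1.96, SE 0.08, adjusted p = 1.5e-18). Nmrk2, a muscle enzyme of NAD+ synthesis, fell from 16.9, 18.3 and 18 to 1.91, 2.02 and 1.61 CPM (log2 fold change -3.25, SE 0.17, adjusted p = 7.9e-13). BC051019 (chr7:109712181-109723850 (-)) fell from 30.4, 31.6 and 37.1 to 1.54, 1.29 and 0.982 CPM (log2 fold change -4.68, SE 0.19, adjusted p = 1.4e-18), and Dynap went from 32.3, 29.5 and 29.1 to 3.45, 2.26 and 3.12 CPM (log2 fold change -3.36, SE 0.23, adjusted p = 3.5e-10). Of the 12 lowered genes chosen in this way, Cd74, Ncf1, C3ar1, Csf1r, Cybb and Ptprc are known from immune cells and were lowered with βOHB too (log2 fold changes -2.83, -1.68, -1.62, -1.82, -1.98 and -1.8 against the same controls). Cd74 and Cybb were not called between butyrate and βOHB (-1.19 and -0.96). The macrophage share would give 1.52% of the control level of Cd74, against 48.4% (Ncf1) to 134% (C3ar1) for the others. Cd74 stood at 57.1, 48 and 6.68 CPM in the controls. Of the 10 genes with the highest control level, among them 7 mitochondrial transcripts and H19, 2 were called, namely Acta1 and mt-Co2 (-0.43, adjusted p = 0.029). The call for mt-Co2 was lost without control replicate 2, control replicate 3 or butyrate replicate 3 (-0.41, -0.26 and -0.35), with the replicate block (-0.42), with scaling by library totals (-0.29) and in the fit of 6 libraries (-0.40).

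Responses that differed in myotubes were identified by testing the difference of the log2 fold change from that in adipocytes, macrophages and hepatocytes. In 850 genes (5.54%) the response of myotubes was above that of each other cell type, and in 862 genes (5.62%) it was below, each difference at an adjusted p below 0.05. The near-even split depended on the processing. The counts above and below were 649 and 966 with hepatocyte-enriched genes left out, and 642 and 914 without a filter on low counts. Many responses were in common, since 4648 genes were called in all 4 cell types, 1910 of them raised in each and 1946 lowered in each. In 168 genes the called change of myotubes was opposite to that called in each other cell type.

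Receptors of the interleukin 6 family were among the genes above. Lifr, the leukemia inhibitory factor receptor, rose from 8.34, 7.74 and 10 to 56.4, 54.6 and 47.3 CPM (log2 fold change 2.6, SE 0.1, adjusted p = 6.0e-19), compared with log2 fold changes of 0.77 (adipocytes), 1.32 (macrophages) and 1.33 (hepatocytes). Osmr, the oncostatin M receptor, rose from 7.42, 5.67 and 6.37 to 9.34, 10.9 and 17.2 CPM (log2 fold change 0.94, SE 0.17, adjusted p = 2.0e-05), highest in butyrate replicate 3, and had values of -0.65, -0.37 and -0.47 in the others. The ligand Lif fell from 16, 15.7 and 14.5 to 6.94, 6.99 and 11.7 CPM in myotubes (log2 fold change -0.85, SE 0.18, adjusted p = 0.00012), less than in the other cell types (-2.53, -2.87 and -2.94). Baiap2, an adaptor of Rac signaling at the membrane, rose from 15.7, 15.5 and 13.5 to 78.9, 76.9 and 71.4 CPM (log2 fold change 2.35, SE 0.09, adjusted p = 2.6e-19), against 0.83, 0.79 and 1.08. Sema6b, a transmembrane semaphorin, rose from 7.05, 6.11 and 7.43 to 29.2, 27.2 and 29.7 CPM (log2 fold change 2.06, SE 0.11, adjusted p = 5.0e-16), whereas its values elsewhere were -0.26, -1.37 and -1.4. Slc2a1, described above, rose by 1.78 in myotubes and by 0.93, 0.45 and 1.09 in the other cell types.

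Among the genes below, Synpo2 fell by 1.96 in myotubes but rose by 1.74, 1.29 and 5.6 on the log2 scale in adipocytes, macrophages and hepatocytes. Csdc2, a cold shock RNA-binding protein, stood at 73.9, 78.5 and 81.9 CPM in the control libraries and 94.5, 83.6 and 74 CPM in the butyrate libraries of myotubes (log2 fold change 0.11, SE 0.09, adjusted p = 0.28), and rose by 5.69, 4.55 and 4.88 elsewhere. Sema6c fell from 56.3, 65.1 and 66.4 to 35.2, 32.3 and 29.1 CPM (log2 fold change -0.96, SE 0.09, adjusted p = 3.0e-10) against 2.79, 3.26 and 3.73, and Iffo1, an intermediate filament family member, from 210.0, 217 and 227 to 59.8, 54 and 50.6 CPM (log2 fold change -1.99, SE 0.08, adjusted p = 4.1e-19) against 1.01, 0.29 and 0.73. Rrad fell by 2.9 in myotubes, with 0.66, -0.85 and -0.36 in the others. Cdkn1a fell by 0.57, with -0.09, 0.01 and -0.11. Follistatin had log2 fold changes of -3.25, -1.72 and -2.01 in adipocytes, macrophages and hepatocytes and a larger fall in myotubes, with differences of -1.02, -2.55 and -2.26 (adjusted p = 9.3e-05, 4.2e-10 and 2.4e-11). Beside the 5.62% of all tested genes that were below each other cell type, the lists held 5 of 58 sarcomere genes, 0 of 8 muscle identity markers, 8 of 34 excitation-contraction coupling genes, 4 of 21 neuromuscular junction genes, 4 of 20 BMP genes, 3 of 10 cell cycle inhibitors and 8 of 19 macrophage markers. Beside the 5.54% above, there were 8 of 31 immediate early genes, 5 of 30 activin, myostatin and TGF-β genes, 4 of 39 secreted factors, 3 of 10 endothelial markers and 4 of 30 hepatocyte markers. These lists were chosen for mention after their counts were seen.

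**Figure D5:**
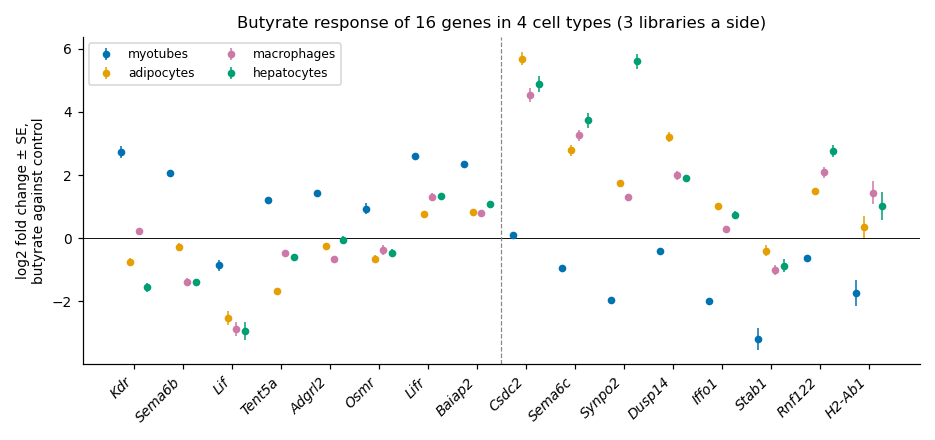
Log2 fold change of butyrate against control with its SE (vertical axis) for 16 genes in myotubes, adipocytes, macrophages and hepatocytes (colored points, 3 libraries a side). Left of the dashed line the myotube value is above each other cell type, as for Lifr (2.60 in myotubes), and right of it below, as for Synpo2 (-1.96 in myotubes against 1.74, 1.29 and 5.60).

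Butyrate and βOHB were compared directly at 5 mM and 6 h, the only pair of related compounds here. In myotubes, 5070 genes were higher with butyrate than with βOHB (33.1%) and 5051 were lower (32.9%). Against the shared controls, butyrate changed 66.5% and βOHB 2.91% of the tested genes (446 genes). Fst stood at 410.0, 464 and 515 CPM in the controls, 449, 342 and 475 CPM with βOHB and 29.7, 23.5 and 18.6 CPM with butyrate, a difference of -4.14 (SE 0.13, adjusted p = 1.7e-20) between the compounds. Myod1 measured 430.2, 458 and 409 CPM with βOHB, -2.69 apart from butyrate on the log2 scale (SE 0.11, adjusted p = 1.1e-18). H1f0 measured 114, 109.6 and 110.5 CPM with βOHB, and the difference was 1.98 (SE 0.06, adjusted p = 1.5e-20). In these 3 genes the range of the βOHB libraries overlapped that of the controls. The medians of the myogenic factor, sarcomere and excitation-contraction lists were 0.10, 0.14 and 0.10 with βOHB, against -0.58, -0.55 and -0.42 with butyrate, with 0 members of the 3 lists called for βOHB.

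Not every gene separated the compounds. The test did not find a difference for 5219 genes, and the 95% interval of the difference lay within 0.5 on the log2 scale for 2853 of these and within 1 for 3954. For Hdac2 the difference was -0.02 (95% interval -0.15 to 0.12), for Igf2 -0.1 (-0.46 to 0.27) and for Csdc2 -0.02 (-0.20 to 0.16). Intervals were wider in other cases. For Top2a the difference was -0.09 (-0.71 to 0.52), and for the macrophage marker Cd68 -0.36 (-1.04 to 0.33), with Cd68 at 29.6, 23.8 and 11.3 CPM in the controls, 6.47, 3.77 and 11.8 CPM with βOHB and 2.6, 9.17 and 5.4 CPM with butyrate. Against βOHB, 5 of the 19 macrophage markers and 7 of the 30 proliferation markers were lower with butyrate.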

How the data were processed

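The authors deposited estimated counts per gene for 36 libraries (12 groups of 3, taken from the labels), made with Salmon 1.2.1 on GENCODE transcripts of GRCm38.p6 and tximport. The other deposited column, of other kind, is the gene identifier. Of 54347 genes, 54094 had a symbol and position in an earlier GENCODE release of this genome. Nothing says that replicates were separate cultures or animals, so p-values measure only the spread between these samples, which may be technical. With groups of 3, the smallest two-sided p of an exact permutation test is 0.1.

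Counts were rounded, and genes that passed 1 CPM in 6 or more libraries (15340) were fitted in edgeR 4.0.16 (R 4.3.3) with TMM scaling and a mean for each of the 12 groups. Quasi-likelihood F tests were adjusted by Benjamini-Hochberg over all tested genes. Genes were called at an adjusted p below 0.05 and called strong beyond 1 on the log2 scale. The SE is the log2 fold change over the root of F, and 95% intervals used 24 residual degrees of freedom. Printed CPM were TMM scaled without a prior count. The code was tested on simulated data. Alternatives, which included limma-voom (limma 3.58.1) and DESeq2 1.42.0, are given in the closing section.

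Hepatocyte-enriched genes had at least 10 CPM in control hepatocytes and at least 16 times the myotube control level (1 added to both), and macrophage-enriched genes likewise in macrophages. The share of a cell type is the summed CPM of its markers as a percentage of that in its own libraries with the same treatment. The expected part of a gene is that share times its level there.

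The libraries, gene lists (33) and naming rule were chosen with earlier results of these data known. Named were the 12 raised and 12 lowered protein-coding genes of largest change (at least 10 CPM in the higher group, groups apart, not hepatocyte-enriched), the 8 differing most from the other cell types each way, up to 4 members a direction of each list by p (at least 5 CPM) with its first 3, and the 10 genes of highest control level. H1f3, H1f5, H1f10, Inha, Kcnj11, Map2, Mef2c, Mybph, Myocd, Rem2 and Ucp3 were named after their values were seen. Some genes that the rule names are not reported here. Promoter sequences are from RefSeq.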

Additional observations from a re-analysis of the deposited data

Results flagged for a closer look

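In 850 genes the butyrate response of myotubes was above that of each other cell type and in 862 it was below, by tests of the difference itself (edgeR quasi-likelihood, adjusted p below 0.05 against each). These counts were 649 and 966 with hepatocyte-enriched genes left out. The 8 genes furthest above, with the smallest of the 3 differences of log2 fold change, were Kdr (2.5), Sema6b (2.33), Lif (1.68), Tent5a (1.66), Adgrl2 (1.48), Osmr (1.31), Lifr (1.28) and Baiap2 (1.27). Kdr, a receptor of vascular endothelial growth factor, rose from 1.47, 1.14 and 0.659 to 6.21, 5.94 and 9.51 CPM, and the macrophage share would give 64% of its control level. The 8 genes furthest below were Csdc2 (-4.44), Sema6c (-3.74), Synpo2 (-3.24), Dusp14 (-2.29), Iffo1 (-2.29), Stab1 (-2.17), Rnf122 (-2.12) and H2-Ab1 (-2.1). Stab1 went from 9.62, 8.62 and 3.6 to 0.528, 0.969 and 0.893 CPM, was also lower with βOHB against the same controls (log2 fold change -2.14), and the macrophage share would give 127% of its control level. H2-Ab1, an MHC class II gene, stood at 10.6, 10.5 and 1.1 CPM in the controls, 1.99, 2.26 and 2.41 CPM with butyrate and 1.19, 0.799 and 1.73 CPM with βOHB, so that control replicate 3 lay below every butyrate library and the groups overlapped. The macrophage share would give 1.07% of the control level of H2-Ab1.

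Hepatocyte RNA appeared in data outside the comparison too. A βOHB library of myotubes, replicate 3, held 415 estimated reads of Alb, where the other βOHB libraries held 0 and the controls 0 to 1.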

How the results depend on the processing

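The counts of genes raised and lowered stayed within 1.5 times the reported counts in all but 1 of 142 recomputed counts, under limma-voom, DESeq2, other size factors, other filters, fits of 9 or 6 myotube libraries, left-out libraries and the removal of hepatocyte- or macrophage-enriched genes or subtraction of the hepatocyte share. The exception was the count of genes lower with butyrate than with βOHB, 3339 with scaling by library totals (6809 higher). Leaving out a library gave 4759 to 4975 raised and 4776 to 5043 lowered genes, 1897 to 2052 strongly raised and 1146 to 1224 strongly lowered, and 712 to 881 and 772 to 869 genes above and below the other cell types. Of the fold changes of named genes, 5529 recomputed values kept direction and side of the threshold, 157 lost the call, 35 gained it and 6 reversed. With βOHB libraries as reference Il7 became 0.27, Lpl 0.56, Cs -0.13 and Lum -1.18 (log2 fold change), and with the hepatocyte share subtracted (added after seeing the data) Alb became 0 and C3 -5.62. The cause was not tested.

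The replicate block was fitted because groups share replicate numbers. Deviations of same-numbered control and butyrate libraries correlated at -0.22, 0.11 and -0.11, and those of differently numbered libraries at -0.13 to 0.24. With 3 libraries a group and uneven RNA of other cell types, these values cannot tell whether the numbers pair the samples. With the replicate block 5051 genes were raised and 5137 lowered, 1968 and 1196 strongly, 840 and 844 differed from the other cell types, and 5055 and 5053 were higher and lower than with βOHB.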
